A study of Homo sapiens with 19 samples.

Results

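The genes described here are 8 growth-arrest and p53 response genes, MDM2, CDKN1A, GADD45A, GADD45B, GADD45G, BTG1, BTG2 and SESN2, taken by name out of the 19906 genes of the deposited tables. All 8 were found in the table of TPM (transcript abundance corrected for length and depth) and in the eCLIP table, and their 67 annotated transcripts were found in the rRNA-depleted table. The cells were SH-SY5Y, a human neuroblastoma line, and sodium arsenite (AS) was the stress used to form stress granules (SGs). The 2 rRNA-depleted libraries came from untreated and AS-treated cells, for which the labels give 500 μM for 1 h. The 5 poly(A) libraries came from cells given a control siRNA (siCtrl), an siRNA to G3BP1 (siG3BP1) or an siRNA to G3BP2 (siG3BP2), from the cleared lysate of AS-treated cells (Total) and from SG cores captured out of that lysate with an antibody to G3BP1. The 8 eCLIP libraries held RNA crosslinked to G3BP1 or to G3BP2 in untreated or AS-treated cells, with 2 libraries in each of the 4 groups. The 4 size-matched input samples, out of 19 samples in all, were not analysed here. For the siRNA, SG and eCLIP samples the labels give 50 mM AS for 1 h, also for siCtrl and for the untreated eCLIP samples, so the groups follow the sample titles. The authors' methods give 500 μM for 1 h as the AS treatment and name no other dose. Each RNA-seq condition had 1 library, so ratios between these libraries carry no replicate check and no p-value.

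p53 is a transcription factor that is stabilised by DNA damage and other stresses and then switches on genes that stop the cell cycle, repair DNA or start cell death. CDKN1A encodes p21, the inhibitor that blocks cyclin-dependent kinases. MDM2 is the ubiquitin ligase that degrades p53 and is itself a p53 target, which closes a feedback loop. The GADD45 proteins bind stress kinases, PCNA and p21. BTG1 and BTG2 are antiproliferative proteins that bind the CCR4-NOT deadenylase, and SESN2 (sestrin 2) restrains mTORC1 through the GATOR complexes. Several of these mRNAs are immediate stress genes with short lives. SGs are cytoplasmic assemblies of untranslated mRNA and RNA-binding proteins, and G3BP1 and G3BP2 are the proteins that nucleate them.

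The labelled cell type was checked on its markers. Of 9 neuroblastoma identity genes, 8 were above 1 TPM in all 5 poly(A) libraries, and their summed level ran from 2264 TPM in Total to 5703 TPM in SG cores. Of 6 markers of other cell types, COL1A1 alone was above 1 TPM, at 9.42 to 41 TPM, and 4 were at 0 in siCtrl and in Total. The siRNA targets were lower in their own libraries. G3BP1 was at 18.7 TPM in siCtrl and at 6.0 TPM in siG3BP1, and G3BP2 was at 38.1 TPM in siCtrl and at 11.4 TPM in siG3BP2. The rRNA-depleted values correspond to 13291958 counted reads in untreated and 11281587 in AS-treated cells. Added up per library, the eCLIP numbers gave totals of 4268911 to 26179736.

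p53 acts through a pair of 10-base sites, and such elements are shown here because they are what several of these genes are known to share. The p53 response element consensus was searched for, as 2 such sites with no spacer, at most 2 mismatches in 20 bases and an intact core of C and G in each of them. The search covered 3000 bases on each side of the start of the MANE Select reference transcript in GRCh38. An element was found at 5 of the 8 genes and in 4.68% of the 19061 windows of this size around all such starts. The consensus is its own reverse complement, so both strands were covered. The elements are given on the strand of the gene, with the core bases in capitals.
MDM2 (chr12:68808923-68808942, plus strand, intron 1): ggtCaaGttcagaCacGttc
CDKN1A (chr6:36676449-36676468, plus strand, upstream of the reference transcript, across the annotated start of the gene): gaaCatGtcccaaCatGttg
GADD45A (chr1:67686775-67686794, plus strand, intron 3): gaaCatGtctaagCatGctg
BTG2 (chr1:203303642-203303661, plus strand, upstream of the gene): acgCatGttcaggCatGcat
GADD45B (chr19:2478021-2478040, plus strand, exon 4): agaCttGgttgaaCttGgtt
The element of GADD45A had 1 mismatch and the others had 2. No match lay in the windows of GADD45G, BTG1 and SESN2. These matches are descriptions of the sequence, and binding of p53 was not measured in these data.

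The genes differ widely in transcript structure. MDM2 (ENSG00000135679, chr12:68808177-68845544, plus strand) spans 37368 bases, and its reference transcript is 7490 bases long, of which 5695 are 3′UTR. BTG1 (ENSG00000133639, chr12:92140278-92145846, minus strand) has a transcript of 4629 bases. The transcripts of SESN2 (ENSG00000130766, chr1:28259518-28282491), BTG2 (ENSG00000159388, chr1:203305491-203309602) and CDKN1A (ENSG00000124762, chr6:36676460-36687337) measure 3462, 2729 and 2117 bases. The 3 GADD45 transcripts are the shortest of the 8, at 1352 bases for GADD45A (ENSG00000116717, chr1:67685201-67688334), 1371 for GADD45B (ENSG00000099860, chr19:2476122-2478259) and 1066 for GADD45G (ENSG00000130222, chr9:89605012-89606555). All but BTG1 lie on the plus strand. MDM2 overlaps the end of CPM, CDKN1A overlaps an antisense gene and BTG1 overlaps LINC01619. The counting of strand in the tables is not stated, so reads of such pairs cannot be told apart.

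In siCtrl cells the level per length fell into a wide order. CDKN1A stood highest at 115 TPM, followed by GADD45A at 34.6, BTG1 at 17.0, BTG2 at 15.2, SESN2 at 7.97, MDM2 at 5.04, GADD45G at 2.62 and GADD45B at 0.517 TPM. CDKN1A lay above 95% of all genes in that library, and GADD45B lay above 36.5%. Over the 3 siRNA libraries the ranges of BTG1 (14.9 to 17.0 TPM) and BTG2 (14.2 to 17.3 TPM) overlap. Those of MDM2 (5.04 to 6.20 TPM) and SESN2 (5.14 to 7.97 TPM) overlap as well. These libraries are different treatments, so the ranges are not a replicate spread, and the order within siCtrl was not tested. Summed over the 8 genes the level was 198 TPM in siCtrl, 227 in siG3BP1, 236 in siG3BP2, 102 in Total and 448 in SG cores.

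**Figure D1:**
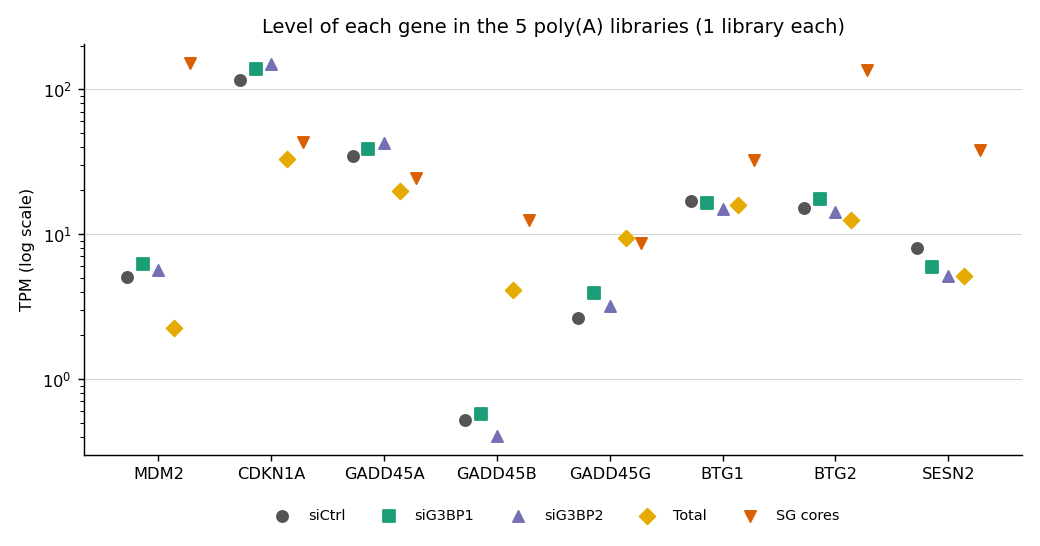
Level of each of the 8 genes in TPM (log axis) in the 5 poly(A) libraries, 1 point per library. MDM2 lies at 2.26 TPM in Total and at 152 TPM in SG cores, while the 3 siRNA libraries of each gene lie close together.

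The first comparison asks how the RNA of these genes differed after 1 h of AS, in rRNA-depleted RNA. BTG2, GADD45B, GADD45G, BTG1 and CDKN1A were higher in the AS library, and the intervals of MDM2 and GADD45A included a ratio of 1. These ratios are not scaled to the median gene, which was itself 1.21-fold higher in the AS library. Values are given for the reference transcript as RPKM (reads corrected for transcript length and library size) with the counts behind them. The intervals are exact 95% Poisson intervals of the ratio and cover counting error only. In bulk RNA, a different share of cells with the RNA and a different amount per cell cannot be told apart.
BTG2, an antiproliferative gene that mitogens and p53 both induce, had 41 counts (1.13 RPKM) in untreated and 227 counts (7.37 RPKM) in AS-treated cells. This is a ratio of 6.52 (4.66 to 9.33), the largest of the 6 of these genes with counts in both libraries. BTG1, its close relative, went from 235 counts (3.82 RPKM) to 413 counts (7.91 RPKM), a ratio of 2.07 (1.76 to 2.44). The intervals of both relatives lie above 1, and that of BTG2 lies above that of BTG1.
CDKN1A had 131 counts (4.66 RPKM) and 183 counts (7.66 RPKM), a ratio of 1.65 (1.31 to 2.08). MDM2 had 896 counts (9.0 RPKM) and 761 counts (9.01 RPKM), a ratio of 1.00 (0.907 to 1.1). The 2 best known p53 targets of the set thus stood apart, since their intervals do not overlap.
The GADD45 genes differed among themselves. GADD45B had 0 counts in untreated cells, for which the exact interval reaches 0.202 RPKM, and 15 counts (0.970 RPKM) in AS-treated cells. It was at least 4.23-fold higher by the lower bound of the exact interval, and its value was 5.89 times a floor of 3 counts in the untreated library (0.165 RPKM). GADD45G had 7 counts (0.494 RPKM) and 19 counts (1.58 RPKM), a ratio of 3.20 (1.29 to 9.0). GADD45A had 59 counts (3.28 RPKM) and 60 counts (3.93 RPKM), a ratio of 1.2 (0.822 to 1.75), and the interval of GADD45G overlaps that of GADD45A.
SESN2 was listed at 0 in both libraries although it was at 5.11 to 38.1 TPM in the 5 poly(A) libraries. Of 7233 genes above 5 TPM in all 5 poly(A) libraries, 57 were listed at 0 in both rRNA-depleted libraries, so these zeros are not read as absence of the RNA.

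**Figure D2:**
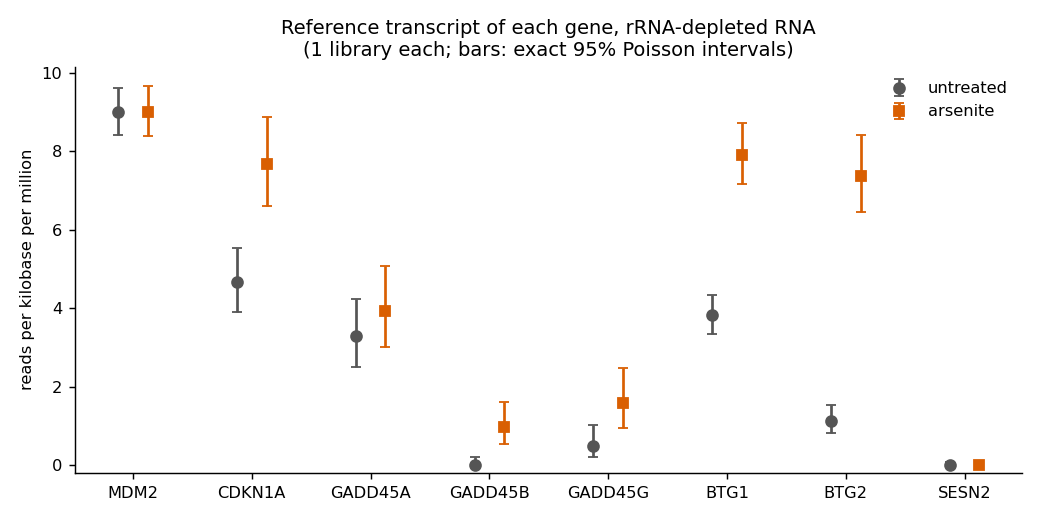
Reference transcript of each gene in RPKM in untreated and AS-treated cells, 1 rRNA-depleted library each, with exact 95% Poisson intervals. The intervals of BTG2, BTG1, CDKN1A and GADD45B do not overlap between the libraries, those of MDM2, GADD45A and GADD45G do, and SESN2 is listed at 0.

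The median gene was itself 1.21-fold higher in the AS library (a log2 shift of 0.28), over 11913 genes above 1 in both. Relative to that median, the summed transcripts of MDM2 stood at 0.757, those of GADD45A at 1.00, CDKN1A at 1.38, BTG1 at 1.47, GADD45G at 1.93 and BTG2 at 5.73. Summed over the transcripts of a gene, which counts a read once for each transcript it fits, 3 of the 7 genes above the minimum of 1 were more than 2-fold higher and 0 were lower. These were GADD45B (0.146 to 4.63 summed RPKM), BTG2 (1.78 to 12.4) and GADD45G (1.25 to 2.92). Among all 12673 genes, 7.63% were past 2-fold higher and 1.40% were lower. The median log2 ratio of value + 1 was 0.78 over the 7 genes and 0.27 over all genes. All 8 transcripts of CDKN1A, all 7 of GADD45A, all 3 of BTG1 and both of BTG2 had a higher RPKM in the AS library. Transcripts of one gene share reads, so these tallies and that of MDM2 are not independent. In GADD45A, ENST00000370985.4 went from 50 to 48 counts and ENST00000650283.1 from 42 to 40, higher only as RPKM. Of the 36 transcripts of MDM2, 27 were lower and 9 were higher, with a median ratio of 0.936 among those above 0 in both.

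A second pair of libraries also sets AS-treated cells beside cells without AS in their titles, Total against siCtrl. Total was made from a cleared lysate and siCtrl from transfected whole cells, so treatment and preparation cannot be told apart in it. GADD45B was higher in Total, at 4.11 against 0.517 TPM (7.95-fold), and so was GADD45G, at 9.38 against 2.62 TPM (3.58-fold). Both genes stood higher in both pairs of libraries, which share no library. CDKN1A was at 32.9 TPM in Total against 115 in siCtrl (a ratio of 0.286), and MDM2 at 2.26 against 5.04 TPM (0.448). CDKN1A was thus higher after AS in rRNA-depleted RNA and lower in the cleared lysate. BTG2 was at 12.4 against 15.2 TPM (0.816), BTG1 at 15.8 against 17.0 (0.934), SESN2 at 5.11 against 7.97 (0.641) and GADD45A at 19.7 against 34.6 (0.570). Of the 8 genes, 2 were past 2-fold higher and 2 were lower, beside 2.35% and 27.2% of 12151 genes. The median gene was at 0.750 of its siCtrl level (a log2 shift of -0.41), and relative to that median CDKN1A stood at 0.382, MDM2 at 0.597, GADD45G at 4.77 and GADD45B at 10.6.

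**Figure D3:**
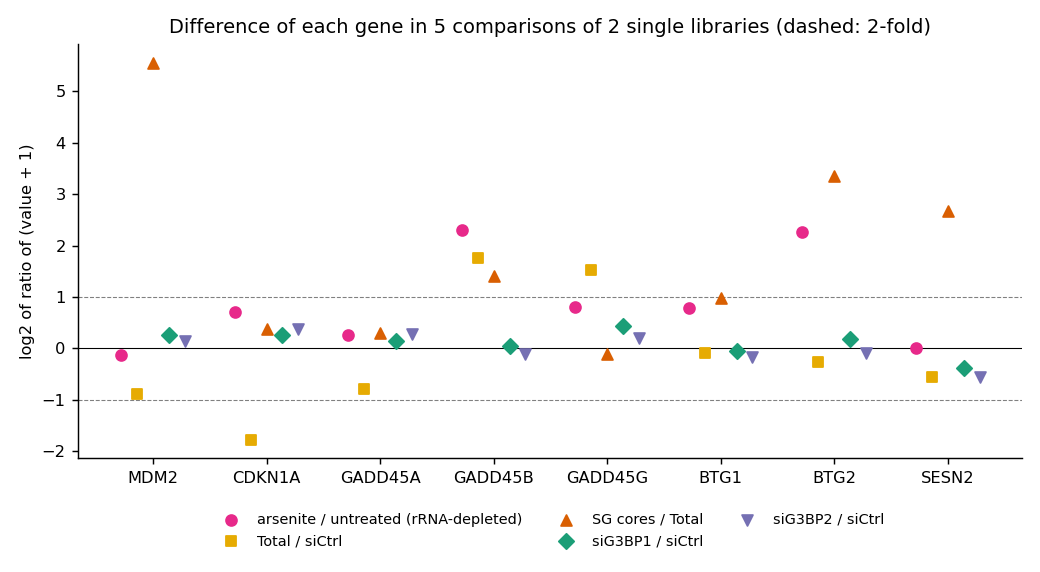
Log2 ratio of value + 1 of each gene in 5 comparisons of 2 single libraries, with dashed lines at 2-fold. SG cores over Total reaches 5.56 for MDM2, both knockdown comparisons lie within 2-fold for all 8 genes, and the point of SESN2 at 0 in rRNA-depleted RNA stands for a gene listed at 0 in both libraries.

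The comparison of SG cores with Total asks which of these RNAs were enriched in the granules. MDM2 was far higher in SG cores, at 152 against 2.26 TPM (67.5-fold), and BTG2 was at 136 against 12.4 TPM (10.9-fold). SESN2 was at 38.1 against 5.11 TPM (7.46-fold) and GADD45B at 12.6 against 4.11 TPM (3.07-fold). These 4 were past 2-fold on the scale of TPM + 1, and 0 of the 8 were past 2-fold lower. BTG1 was at 32.4 against 15.8 TPM (2.04-fold), just short of 2-fold on the scale of TPM + 1. CDKN1A was at 43.2 against 32.9 TPM (1.32-fold), GADD45A at 24.5 against 19.7 (1.24-fold) and GADD45G at 8.64 against 9.38 (0.922).
MDM2 thereby moved from the lowest of the 8 genes in Total to the highest in SG cores, while CDKN1A moved from place 1 to place 3.
Enrichment was the common case in this pair. Of 13538 genes, 62.9% were past 2-fold higher in SG cores and 9.45% were lower, and the median gene was 2.78-fold higher (a log2 shift of 1.47). Relative to that median, MDM2 stood at 24.3, BTG2 at 3.94, SESN2 at 2.69, GADD45B at 1.1, BTG1 at 0.736, CDKN1A at 0.474, GADD45A at 0.447 and GADD45G at 0.332. With the median ratio set to 1, CDKN1A, GADD45A and GADD45G were past 2-fold lower. MDM2 lay above 98.9% of all genes in this ratio, BTG2 above 84.2% and SESN2 above 73.4%. GADD45G, with the shortest transcript of the 8, lay above 18.7%. The longest transcript belonged to the gene with the highest ratio, but BTG1, second in length, lay above 36.7% of genes. Fewer copies in the lysate and more copies in the granules cannot be told apart in a ratio of these values.

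**Figure D4:**
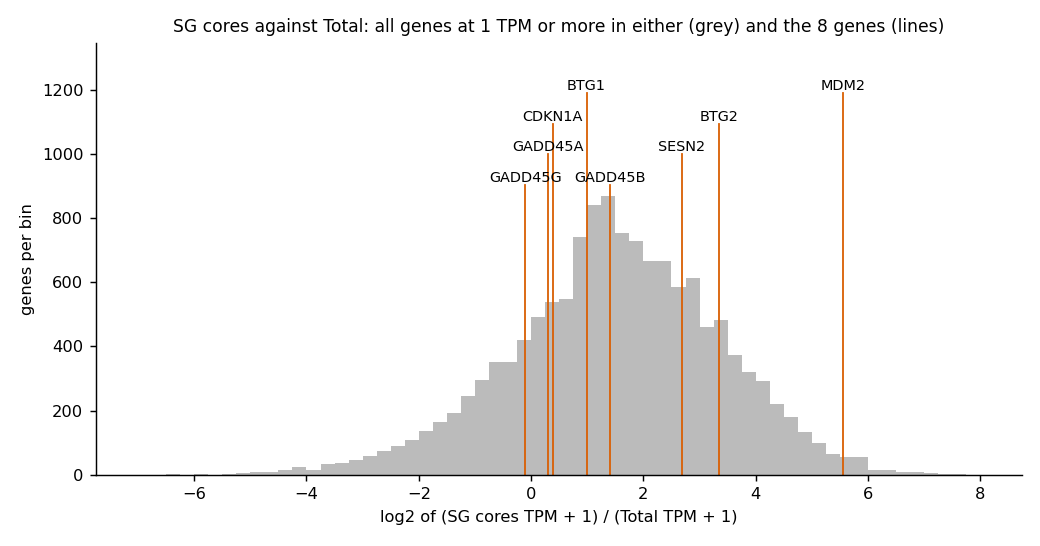
Number of genes per bin of the log2 ratio of SG cores to Total (TPM + 1), for all 13538 genes at 1 TPM or more in either library, with a line for each of the 8 genes. MDM2 lies at 5.56 in the upper tail, BTG2 at 3.35 and SESN2 at 2.68, and CDKN1A, GADD45A and GADD45G lie below the centre.

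The study describes a palindromic word for its G3BP eCLIP peaks, CCAGGCTGG or CCAGCCTGG in DNA letters, and the transcripts were searched for both. The reference transcript of MDM2 held it 5 times, all in the 3′UTR. Of 2140 reference transcripts of similar length (80% to 125%), 50.4% held it and 5.33% held it at least as often as MDM2. GADD45G held it 1 time, where 7.25% of transcripts of similar length held any, and the other 6 genes held none. The site of GADD45G is shown with the word in capitals and the position counted from the start of the transcript.
GADD45G, position 773: ggcggcagggCCAGGCTGGtccgagctgag
The 3′UTR was also searched for the AU-rich pentamer ATTTA, a feature of many short-lived mRNAs. MDM2 held 23 copies, above 88.9% of 3′UTRs of similar length, whose median was 12. It also held the nonamer TTATTTATT, as did 22.2% of those 3′UTRs.
MDM2, 3′UTR position 4923: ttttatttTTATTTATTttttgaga
BTG1 held 5 copies of the pentamer, CDKN1A 3, GADD45A and BTG2 2 each, and GADD45B, GADD45G and SESN2 none. The nonamer was in none of these 7. RNA stability was not measured, and a relation between these sites and the levels after AS was not tested.

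Knockdown of G3BP1 or G3BP2 asks whether the level of these RNAs depends on the proteins. GADD45B stayed below the minimum of 1 TPM in all 3 siRNA libraries (0.517, 0.570 and 0.404 TPM), and of the other 7 genes 0 were past 2-fold in either knockdown. In siG3BP1, 2.53% of 12259 genes were past 2-fold higher and 3.69% were lower, and in siG3BP2 2.42% and 5.63% of 12207 genes. GADD45G had the highest ratio in siG3BP1, at 3.92 against 2.62 TPM (1.49-fold). CDKN1A was at 139 TPM in siG3BP1 (1.21-fold) and at 150 TPM in siG3BP2 (1.31-fold). SESN2 had the lowest ratio in both, at 5.94 TPM (0.745) and 5.14 TPM (0.644). The median gene was at 0.941 of siCtrl in siG3BP1 and at 0.919 in siG3BP2. MDM2 was at 6.20 and 5.66 TPM (1.23- and 1.12-fold), GADD45A at 38.6 and 42.4 TPM (1.12- and 1.23-fold), BTG1 at 16.3 and 14.9 TPM (0.963 and 0.880) and BTG2 at 17.3 and 14.2 TPM (1.14 and 0.933). Both knockdowns share the siCtrl library.

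eCLIP asks how much of each RNA is crosslinked to G3BP1 and G3BP2 and whether AS changes it. MDM2 stood far above the other 7 genes per kilobase of gene. In the deposited table a whole number was raised by 1 and turned into its log10, and it is described here after each library was set to one common total. The mean scaled number over the 8 libraries was 48.4 per kilobase of gene for MDM2, above 99.4% of 19874 genes. GADD45B (9.04), CDKN1A (8.56), BTG2 (8.51) and GADD45A (6.66) lay above the median gene (5.50), and BTG1 (3.32) and GADD45G (1.59) lay below it. The span includes introns. The numbers were not set here against the size-matched input or the level of each RNA, so binding and abundance cannot be told apart. MDM2, with the longest of the 8 reference transcripts, also had the most counts of them in untreated rRNA-depleted RNA (896, 9.0 RPKM). By TPM it took place 6 of 8 in siCtrl (5.04 TPM), the lowest place in Total (2.26 TPM) and the highest in SG cores (152 TPM).
For MDM2 with G3BP1, the log10 scaled values of untreated cells were 3.21 and 3.09, and those after AS were 3.32 and 3.44. With G3BP2 they were 3.13 and 3.16 without AS, and 3.24 and 3.35 after it. The groups do not overlap for either protein on this scale, although as deposited they do (3.47 and 2.80 against 3.56 and 2.95 for G3BP1). The change was 0.233 ± 0.0673 (SE; n = 2 and 2) on the log10 scale for G3BP1, with an unadjusted p of 0.0168 and an adjusted p of 0.996 by limma. For G3BP2 it was 0.153 ± 0.050 (SE; n = 2 and 2), with an unadjusted p of 0.0288 and an adjusted p of 0.995 by limma. Neither passed the adjusted threshold of 0.05.
CDKN1A lay at 2.05 and 1.87 (untreated) and 2.15 and 1.87 (AS) with G3BP1, and at 1.98 and 1.56 and at 1.91 and 2.13 with G3BP2. These groups overlap or lie within the spread of the duplicates.
GADD45A with G3BP2 lay at 1.63 and 1.58 without AS and at 1.21 and 1.11 after it, a change of -0.446 ± 0.142 (SE; n = 2 and 2; unadjusted p = 0.0263 and adjusted p = 0.995 by limma). With G3BP1 it lay at 1.15 and 0.941 and at 1.01 and 1.5, a change of 0.211 ± 0.276 (adjusted p = 0.996 by limma). The difference of these changes between the proteins was -0.657 (95% interval -1.36 to 0.0445; unadjusted p = 0.0624 and adjusted p = 1.00 by limma).
BTG2 had values between 1.14 and 1.80 in all 8 libraries, and the treatment groups overlap for both proteins. BTG1 and GADD45B were listed at 0 in the second AS library of G3BP1, the library with the smallest total (4268911), and lay between 0.895 and 1.68 and between 1.21 and 1.52 in the other 7. GADD45G was above 0 in 3 of 8 libraries. SESN2 was listed at 0 in all but 1 library. Of the 57 genes listed at 0 in rRNA-depleted RNA above, 41 were above 0 in at most 1 eCLIP library, SESN2, RPS18 and RPS25 among them. Its eCLIP zeros are not read as absence of binding.

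**Figure D5:**
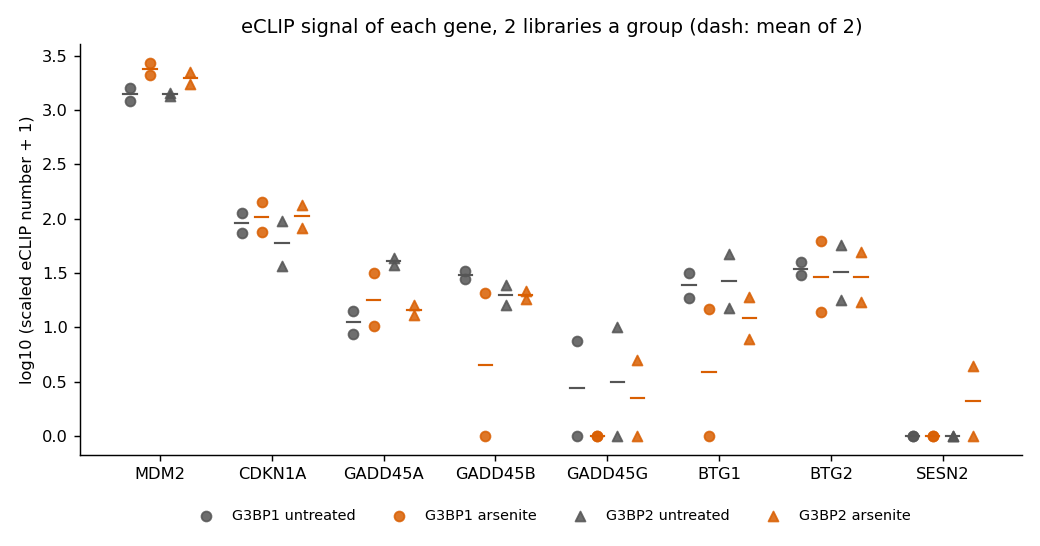
Log10 of the scaled eCLIP number + 1 for each gene in the 8 libraries, 2 per group, with a dash at the mean of 2. MDM2, the longest of these genes, lies between 3.09 and 3.44, and the other 7 genes lie at or below 2.15. Values are not corrected for gene length.

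Of the 8 genes, 6 could be tested for an AS change with G3BP1 and 7 with G3BP2, and 0 passed an adjusted p of 0.05 by limma, as did 0 of 18873 and 0 of 19019 genes. At an unadjusted p under 0.05, MDM2 was higher with both proteins and GADD45A was lower with G3BP2. On the values as deposited, without scaling to a common total, none of these 3 had an unadjusted p under 0.05 by limma (0.840 and 0.854 for MDM2 with G3BP1 and G3BP2, and 0.231 for GADD45A), and the MDM2 changes were 0.12 and 0.080. Among all genes 1.32% were higher and 1.23% lower at that level for G3BP1, and 1.74% and 1.60% for G3BP2. No gene differed between the proteins in its response to AS after adjustment, with 62 and 86 of 19242 genes past an unadjusted p of 0.05 in either direction. Between G3BP2 and G3BP1 over all 8 libraries, MDM2 differed by -0.0422 (95% interval -0.142 to 0.0574; adjusted p = 0.999 by limma), and 0 genes passed the adjusted threshold, with 175 higher (0.909%) and 158 lower (0.821%) at an unadjusted p under 0.05, MDM2 not among them.

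The wider pathway gives the setting of these values. Of 31 other p53 target genes, 30 were above the minimum in rRNA-depleted RNA, and 9 were past 2-fold higher after AS and 0 lower, beside 7.63% and 1.40% of all genes. Given for untreated and then AS-treated cells, DRAM1, which acts in autophagy, was at 0.176 and 1.24 summed RPKM, GDF15, a stress cytokine, at 0.483 and 2.33, and FAS, a death receptor, at 0.803 and 2.66. These untreated values all lie below the minimum of 1, and no counting intervals were made for these genes. The median log2 ratio of the other p53 targets was 0.32, beside 0.27 over all genes. In Total against siCtrl 12 of 27 were lower and 0 higher, beside 27.2% and 2.35% of all genes, with a median of -0.83 beside -0.41 over all genes. SESN1, the relative of SESN2, was at 0.183 TPM in Total, 12 in siCtrl and 24.7 in SG cores. SESN3 was at 0.763, 1.53 and 66.1 TPM in the same order.
In SG cores 16 of 29 other p53 targets were past 2-fold higher, beside 62.9% of all genes, with a median log2 ratio of 1.14 beside 1.52 over all genes. TP53INP1 (54.2 against 1.05 TPM), ZMAT3 (48.3 against 1.17) and APAF1 (42.7 against 0.925) had the highest ratios of TPM + 1, and TRIAP1 (8.93 against 21.0) and CCNG1 (19.5 against 43.3) were lower. Among p53 and its regulators 9 of 11 were past 2-fold higher beside the same 62.9%, with a median of 3.89 beside 1.52. MDM4, the partner of MDM2 that inhibits p53, was at 95.3 against 2.27 TPM, and TP53BP1 at 207 against 6.24 TPM.
A list of the cyclins and CDKs of G1 and S phase, the targets of p21, also held PCNA. Of its 9 genes above the minimum, 7 were higher in SG cores beside 62.9% of all genes. CDK6 was at 404 against 7.96 TPM, and PCNA was lower at 63.8 against 212 TPM. In the BTG/TOB family and the CCR4-NOT complex 9 of 12 were higher in SG cores, again beside 62.9%, with CNOT1 at 346 against 10.6 TPM. After AS, 3 of 12 of this list were past 2-fold higher and 0 were lower, beside 7.63% and 1.40% of all genes. These were TOB1 (63.2 against 21.9 summed RPKM), TOB2 (12.5 against 4.54) and CNOT3 (22.8 against 9.75). Of 4 GADD45 partners 2 were higher in SG cores (62.9% of all genes), MAP3K4 (59.6 against 4.02 TPM) and MAP2K7 (97.2 against 27.5). After AS 0 of these 4 changed past 2-fold, beside the same 7.63% and 1.40% of all genes.
In siG3BP1, 1 of 11 regulators was past 2-fold higher and 1 was lower. Of 29 other p53 targets 1 was higher and 0 were lower. In the BTG/TOB and CCR4-NOT list 0 of 12 were higher and 2 were lower. Among all genes 2.53% were higher and 3.69% were lower in this knockdown. In siG3BP1 the regulators ATM (5.32 against 2.37 TPM) and CHEK2 (5.19 against 12.1) stood on opposite sides, TNFRSF10A was higher (1.61 against 0.570) and CNOT2 was lower (5.96 against 22.9). In siG3BP2 0 of 28 other p53 targets were past 2-fold either way, beside 2.42% higher and 5.63% lower among all genes. Of the 11 regulators 0 were higher and 2 were lower. Among these was USP7, the ubiquitin protease that acts on MDM2 and p53, at 8.06 against 21.1 TPM.

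Genes near in pattern were taken as those at the smallest Euclidean distance of centred log2(value + 1) over the 7 RNA-seq libraries, among 14114 genes. The 5 poly(A) libraries entered as TPM and the 2 rRNA-depleted ones as RPKM summed over transcripts. Likeness here thus rests in part on the unit and on the number of annotated transcripts. For MDM2 the summed RPKM was 338 and 311, against 152 TPM in SG cores and 2.26 to 6.20 TPM in the other poly(A) libraries. GADD45B lay nearest to ATF3 and EGR2, both stress-induced transcription factors, at distances of 1.00 and 1.14 (Pearson r = 0.989 and 0.941 over 7 libraries). MDM2 lay nearest to AKAP9 and VPS13B (0.781 and 0.799), and BTG2 lay near FNBP4 (1.03). CDKN1A lay nearest to NTNG2 and ACTA2 (0.638 and 0.878), GADD45A to TSPAN13 and ARMC12 (0.315 and 0.368) and GADD45G to CIR1 and ANG (0.453 and 0.721). BTG1 lay nearest to SPATA5L1 and FDXACB1 (0.208 and 0.305), and SESN2 to RRN3 and PHRF1 (0.391 and 0.404), with SESN2 listed at 0 in the 2 rRNA-depleted libraries.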

How the data were processed

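The authors trimmed eCLIP reads and removed duplicate molecules with fastp 0.23.2, aligned them with STAR to GRCh38.p13, used CLIPper for peaks and set these against the input. Per the file headers the eCLIP values are peaks, and the deposited values are log10 of a whole number plus 1. These numbers total 4268911 to 26179736 per library, far more than the peaks the authors report, so they are not counts of peaks. What they count, and whether they were set against the input, is not stated. For the other libraries the authors used HISAT2 2.1.0 (named in the submitters' processing notes with hg38) and StringTie. The deposited poly(A) values are TPM per gene. The deposited rRNA-depleted values are headed TPM, but value times length is a whole multiple of 1 step in 100% of transcripts (tolerance 0.01 counts), so they were treated as RPKM and counts were recovered for intervals, without a count model. TPM gives no depth.

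The 36 rows with repeated gene IDs were left out. Gene IDs were matched to GENCODE annotation of GRCh38 of a later release than the authors', which found 19874 genes and 91.1% of transcripts. Calls needed a ratio above 2 or below 0.5 and a value of at least 1 in the higher library, with a pseudocount of 1 for SG cores. limma 3.58.1 (R 4.3.3) was used for eCLIP, with its variance trend and p-values adjusted after Benjamini and Hochberg, over genes above 0 in at least 2 libraries. No source states that duplicates are separate cultures, so p-values measure only the spread between these libraries. Scripts were tested on simulated data. Python 3.11.15 was used for the rest.

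The members and gene lists were chosen with earlier results of these data known. Named genes are the 8 members, at most 3 highest and 3 lowest of each list past 2-fold and the 2 nearest genes of each member. Some genes and sequences that meet these rules are not reported here. Of the eCLIP changes, those of MDM2 and GADD45A are printed because their unadjusted p was under 0.05, a choice made after their values were seen. Alternatives covered pseudocounts, minimums, folds, scaling, the transcript used, the replicate number and leaving out each library.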

Additional observations from a re-analysis of the deposited data

How the results depend on the processing

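The 2-fold counts over the 8 genes moved by 1 to 3 genes under several alternatives. The 3 genes higher after AS became 2 on value + 1 and with the same median in both libraries. The 4 higher in SG cores became 5 with a pseudocount of 0.1, and 3 with the median ratio set to 1 or with folds of 4 and 0.25. With a fold of 1.5, 5 genes were higher after AS, 1 was lower in siG3BP2 in place of 0, and 4 were lower in Total in place of 2. With TPM + 1, or with the median ratio set to 1, 1 gene was lower in Total. With the median ratio of SG cores to Total set to 1, 3 genes were lower in SG cores in place of 0.

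Counts over all genes depended more on the thresholds. Genes higher after AS ran from 458 to 2679 (967 in the report) and lower ones from 71 to 818 (177), genes higher in SG cores from 4496 to 8917 (8518) and lower ones from 536 to 3265 (1279). Higher and lower genes ran from 137 to 1350 (310) and 242 to 1406 (452) in siG3BP1, from 150 to 1187 (296) and 353 to 1805 (687) in siG3BP2, and from 156 to 1256 (286) and 1946 to 5419 (3305) in Total.

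For eCLIP, 0 genes passed adjustment for AS with G3BP1, and 0 to 2 when 1 library was left out, the 2 without the second untreated library of G3BP1. With G3BP2 2 genes passed on the values as deposited and 0 under every left-out library. For the difference between proteins 0 to 21 passed, the 21 without the first AS library of G3BP1. Leaving out 1 library put the MDM2 change of G3BP1 at 0.172 to 0.294 and that of G3BP2 at 0.0971 to 0.208, and the GADD45A change for G3BP1 between -0.0345 and 0.456. The MDM2 difference of G3BP2 against G3BP1 over all 8 libraries was 0.095 on the values as deposited. The cause of these shifts was not tested. Same-numbered libraries deviated together (correlations of 0.110 to 0.545 over 6 pairs of libraries), but 2 numbers do not show pairing. Under a replicate block 0 genes passed in all 4 eCLIP comparisons, and the MDM2 change was 0.233 for G3BP1 (unadjusted p = 0.0258, adjusted p = 0.972 by limma) and 0.153 for G3BP2. Over all members and alternatives the lowest adjusted p was 0.150. With 2 libraries a group the eCLIP changes carry wide intervals, and for the single RNA-seq libraries counting error alone is known, from the rRNA-depleted table.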
